A study of Mus musculus with 12 samples.

Results

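The Mediator complex was examined here through 33 genes, chosen by name as the listed subunits of its head, middle, scaffold, tail and head-tail junction and its dissociable kinase module. All 33 had a value in every library, out of 17665 genes with values at both ages (19392 at postnatal day 36 and 17750 at 6 months). Mediator is the large assembly that carries signals from transcription factors bound at enhancers to RNA polymerase II at the promoter. Med1 is the subunit through which nuclear receptors, the vitamin D receptor among them, contact the complex, and both proteins are known in skin for their roles in keratinocyte differentiation and hair cycling. The kinase module binds the core reversibly and, while bound, keeps the polymerase away.

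Total RNA of dorsal epidermis from C57BL/6 mice was sequenced in 12 libraries. The 3 DKO libraries at postnatal day 36 (P36) and the 3 at 6 months came from mice with floxed alleles of Vdr and Med1 and a Cre transgene under the keratin 14 promoter (K14 Cre+/-). The 3 control (CON) libraries at each age came from mice with the same floxed alleles and no Cre (K14 Cre-/-). The keratin 14 promoter drives Cre in keratinocytes of the basal layer, and cells that descend from them inherit the deletion. Cells of the peeled epidermis that have another origin keep both genes. Whether the 3 libraries of a group came from separate animals is not stated in the labels, and p-values therefore measure only how far these samples spread, which may be technical.

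Each value is an FPKM, the fragments assigned to a gene per kilobase and scaled to the size of the library, as the authors deposited it. Read depth is therefore unknown. A library's FPKM added up to 446617 to 554382, and 12056 to 12760 genes reached 1 FPKM in it. The basal keratinocyte marker Krt14 stood at 1132 to 3388 FPKM in the 12 libraries. Of 8 keratinocyte markers, 3 were called higher and 1 lower in DKO at P36, and 1 higher and 4 lower at 6 months. That is 50% at P36 and 62.5% at 6 months, against 23.3% and 41.3% of all genes tested. Markers of other cells also moved with genotype and age. The summed level of 8 hair matrix and shaft markers was 9180 to 12630 FPKM in DKO and 20550 to 27150 FPKM in CON at P36, and at most 20.9 FPKM in any library at 6 months, with 1 of the 8 markers at 0 throughout or without a value. The sum of 8 skeletal muscle markers was 118 to 486 FPKM in DKO and 12.1 to 24.0 FPKM in CON at P36. At 6 months the sum of 7 macrophage and neutrophil markers was 292 to 673 FPKM in DKO and 81.7 to 120.5 FPKM in CON, although 2 of the 7 were called higher and 1 was called lower, with a median log2 fold change of 0.18 over the 7. The sum of 6 endothelial and smooth muscle markers was then 43.7 to 93.6 FPKM in DKO and 151 to 198.5 FPKM in CON. At P36 it was higher in DKO, at 207.8 to 259.2 FPKM against 80.3 to 123.3 FPKM in CON. The macrophage and neutrophil sum at P36 was 204.2 to 362.7 FPKM in DKO and 51.5 to 113.4 FPKM in CON. At P36, 5 of 7 macrophage and neutrophil, 4 of 5 adipocyte and 4 of 4 T cell markers tested were called higher. So were 3 of 5 Langerhans cell markers, and 3 of 5 melanocyte markers were called lower. The part of these cells in the results on Mediator was not tested.

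Libraries labelled DKO did not show less of Vdr, the other targeted gene. Its level was 87.4, 86.7 and 76.5 FPKM in DKO and 65.8, 65.5 and 72.9 FPKM in CON at P36 (log2 fold change 0.29, limma adjusted p = 0.0573), and at 49.3, 42.1 and 52.9 FPKM in DKO and 53.5, 31.4 and 36.7 FPKM in CON at 6 months. The values are per gene, so they cannot show whether an exon between loxP sites is missing from the transcripts. The genotype is therefore taken from the labels, and the libraries are called by them throughout.

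The promoters of 3 members that were higher in libraries labelled DKO at 6 months are shown first, since Med21, Med6 and Ccnc were the 3 with the smallest p there. They were taken from RefSeq on GRCm38.p6, from 250 bases before to 50 bases after the annotated start, for the 28 of 33 members that matched (not Med8, Med23, Med24, Med30 and Cdk19). They are written on the gene's own strand, at chr6:146642329-146642628 (plus strand) for Med21, chr12:81594959-81595258 (minus strand) for Med6 and chr4:21727451-21727750 (plus strand) for Ccnc. Capitals mark 3 motifs, searched on both strands: TGACGTCA (the cyclic AMP response element), CCGGAAG (a core bound by ETS factors) and GGGCGG (the Sp1 box, CCGCCC on the other strand).
Med21: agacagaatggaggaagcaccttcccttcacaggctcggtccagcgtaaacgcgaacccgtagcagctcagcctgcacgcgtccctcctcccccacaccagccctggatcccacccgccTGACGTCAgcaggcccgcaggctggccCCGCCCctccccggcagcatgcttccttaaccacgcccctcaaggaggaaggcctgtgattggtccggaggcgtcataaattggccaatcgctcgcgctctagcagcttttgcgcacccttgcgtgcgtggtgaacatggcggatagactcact
Med6: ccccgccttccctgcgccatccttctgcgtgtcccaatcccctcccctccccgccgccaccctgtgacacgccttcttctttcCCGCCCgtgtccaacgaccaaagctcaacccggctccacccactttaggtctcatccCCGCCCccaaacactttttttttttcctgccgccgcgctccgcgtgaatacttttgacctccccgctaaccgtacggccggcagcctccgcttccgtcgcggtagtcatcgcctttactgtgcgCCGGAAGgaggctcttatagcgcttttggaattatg
Ccnc: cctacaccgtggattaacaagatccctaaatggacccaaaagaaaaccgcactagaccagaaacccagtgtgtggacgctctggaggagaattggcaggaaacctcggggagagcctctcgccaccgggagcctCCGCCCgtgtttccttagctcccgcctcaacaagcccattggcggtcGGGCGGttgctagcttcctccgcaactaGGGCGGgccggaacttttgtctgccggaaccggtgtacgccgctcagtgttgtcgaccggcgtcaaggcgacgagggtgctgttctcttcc

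The full cyclic AMP response element stood in the window of Med21 and of no other matched member, while 2.34% of 17492 promoters of protein-coding genes held it. The ETS core was found in 7 of 28 members and in 11.9% of all promoters: Med4, Med6, Med14, Med15, Med17, Med18 and Med19. The Sp1 box was found in 18 of 28 members (64.3%) and in 46.3% of all promoters. The TATA box, TATAAA, was found in Med7, Med16 and Med28, 3 of 28 members (10.7%), and in 13.3% of all promoters. A direct repeat of the receptor half-site AGGTCA, with any 3 bases between its copies, was in no member's window and in 0.00572% of all promoters. A match describes these letters and is not a site, and a missing match says nothing of the factor.

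**Figure D1:**
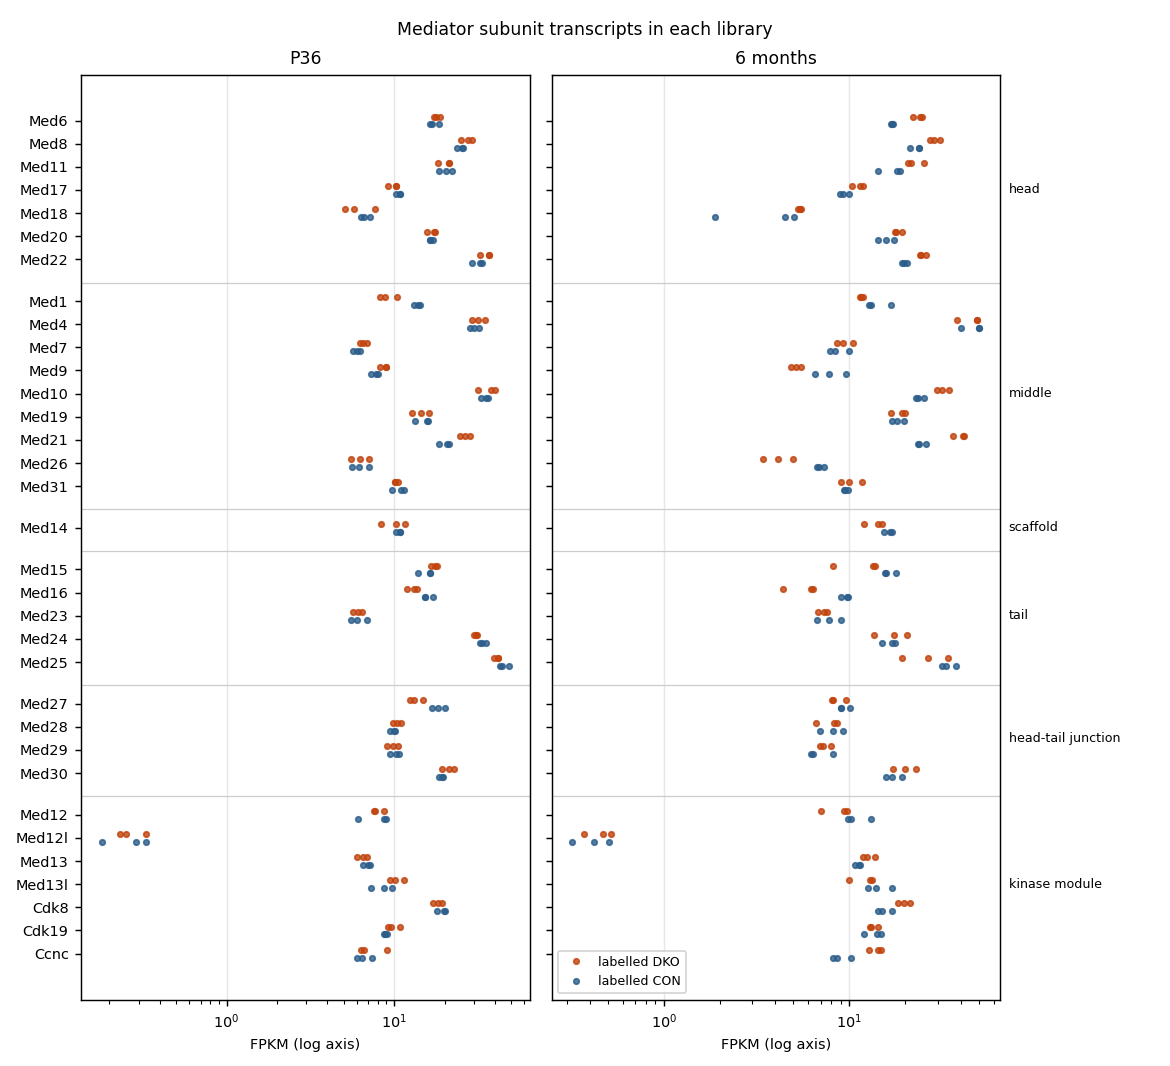
FPKM (log axis) of the 33 Mediator genes in each of 12 libraries, by module, with the libraries labelled DKO above those labelled CON for each gene and P36 left of 6 months. Med12l lies apart at 0.18 to 0.52 FPKM, and every other member had a group mean between 3.79 and 46.8 FPKM.

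The subunits were not present at equal transcript levels. Per kilobase, Med25 (a tail subunit that binds activators) was the highest member at P36, at 40.9 ± 1.42 FPKM in DKO and 45.02 ± 3.22 FPKM in CON (SD, n = 3 each). Med4, of the middle module, was the highest at 6 months, at 45.3 ± 6.42 FPKM in DKO and 46.8 ± 5.73 FPKM in CON (SD, n = 3 each). In CON at P36, Med25 was followed by Med10, Med24, Med22 and Med4 at 34.9, 33.8, 31.7 and 30.2 FPKM, 4 means each of which differed from its neighbour by less than the larger SD of the pair. The median of the 33 member means was 10.4 FPKM in DKO and 13.8 FPKM in CON at P36, and 12.7 FPKM in DKO and 14.2 FPKM in CON at 6 months. Med12l, a paralog of Med12, was the lowest everywhere, at 0.33, 0.23 and 0.25 FPKM in DKO and 0.29, 0.33 and 0.18 FPKM in CON at P36, and at 0.37, 0.47 and 0.52 FPKM in DKO and 0.42, 0.32 and 0.51 FPKM in CON at 6 months. It was the only member below the minimum for testing, at least 1 FPKM in at least 3 libraries, so 32 members were tested.

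Med1 fell in the libraries labelled DKO at P36. It stood at 10.4, 8.78 and 8.2 FPKM in DKO and at 13.9, 14.2 and 13.2 FPKM in CON. Every DKO library was below every CON library, and the DKO mean was 66.1% of the CON mean. The log2 fold change was −0.55 (SE 0.11, limma adjusted p = 0.0083, over 12660 genes), on the log2(FPKM + 1) scale used for every fold change here, which understates the change of low genes. The test is limma's moderated test with Benjamini-Hochberg adjustment, and a gene is called at an adjusted p below 0.05. In bulk tissue, fewer cells that express a gene and less RNA per cell cannot be told apart.

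At 6 months, Med1 was at 11.6, 11.4 and 11.9 FPKM in DKO and at 16.7, 13.1 and 12.7 FPKM in CON. The groups again did not overlap, but CON replicate 1 stood above the other two, and the DKO mean was 81.8% of the CON mean. The log2 fold change of −0.26 (SE 0.12) was not called (adjusted p = 0.13). It was called with keratin and cornified envelope genes left out of the totals (−0.43, adjusted p = 0.0388) and with transcript GC content smoothed out of each library, an alternative chosen after seeing the data (−0.43, adjusted p = 0.0358). It was −0.14 without CON replicate 1 (adjusted p = 0.246). The effect at 6 months minus that at P36 was 0.29 (SE 0.16, adjusted p = 0.18), and without CON replicate 1 of 6 months it was 0.41 and called (adjusted p = 0.0423), as it was with transcript length smoothed out (0.44, adjusted p = 0.0396).

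At P36, 3 of the 32 members tested were called, 9.38% against 23.3% of all genes tested. Med21 was higher (18.0% of all genes were), and Med1 and Med27 were lower (5.32% of all genes were). Med1 is itself a gene targeted in the DKO mice. It is included in every count of members here, so these counts are not of untargeted members alone. The members' median log2 fold change was 0.01, and that of all genes was 0.09. Groups did not overlap for 9 members (39.6% of all genes), with DKO higher in 4 (30.0% of all genes) and lower in 5 (9.63% of all genes). With median-ratio scaling or with transcript length smoothed out, 4 members were called and all were lower (Med1, Med16, Med24 and Med27). With keratin and cornified envelope genes left out of the totals 2 were called, and with GC content smoothed out 3, all lower in both cases. These scalings moved the median of all genes to −0.03, −0.02, 0.04 and −0.02.

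Med21 forms with Med7 the hinge at the centre of the middle module. It stood at 28.3, 26.5 and 24.7 FPKM in DKO and at 20.8, 18.4 and 21.1 FPKM in CON at P36, with all DKO libraries above all CON libraries (log2 fold change 0.38, SE 0.10, adjusted p = 0.0236). The P36 call of Med21 was lost under each of the 4 scalings just named (adjusted p 0.054 to 0.117) and without CON replicate 1 (adjusted p = 0.0559), CON replicate 2 (0.0798), DKO replicate 1 (0.0635) or DKO replicate 2 (0.0786). Its partner Med7 stood at 6.93, 6.29 and 6.54 FPKM in DKO and at 5.65, 5.98 and 6.29 FPKM in CON, which touch at one value, and was not called (0.12, adjusted p = 0.444).

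Med27, at the junction of head and tail, stood at 12.5, 14.9 and 13.2 FPKM in DKO and at 16.9, 20.2 and 18.2 FPKM in CON at P36. All DKO libraries were below all CON libraries (log2 fold change −0.42, SE 0.11, adjusted p = 0.0259). The call of Med27 was lost without CON replicate 2 (adjusted p = 0.0881), CON replicate 3 (0.0532), DKO replicate 1 (0.0697) or DKO replicate 3 (0.0922). The other junction subunits, Med28, Med29 and Med30, had log2 fold changes of 0.07, −0.04 and 0.13 at P36 and were not called. At 6 months Med27 was at 9.58, 8.11 and 8.13 FPKM in DKO and at 10.1, 9.06 and 9.07 FPKM in CON, values that overlap (−0.12, adjusted p = 0.422). Med28, Med29 and Med30 had −0.05, 0.10 and 0.19 at 6 months, and no junction subunit was called there (41.3% of all genes were).

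**Figure D2:**
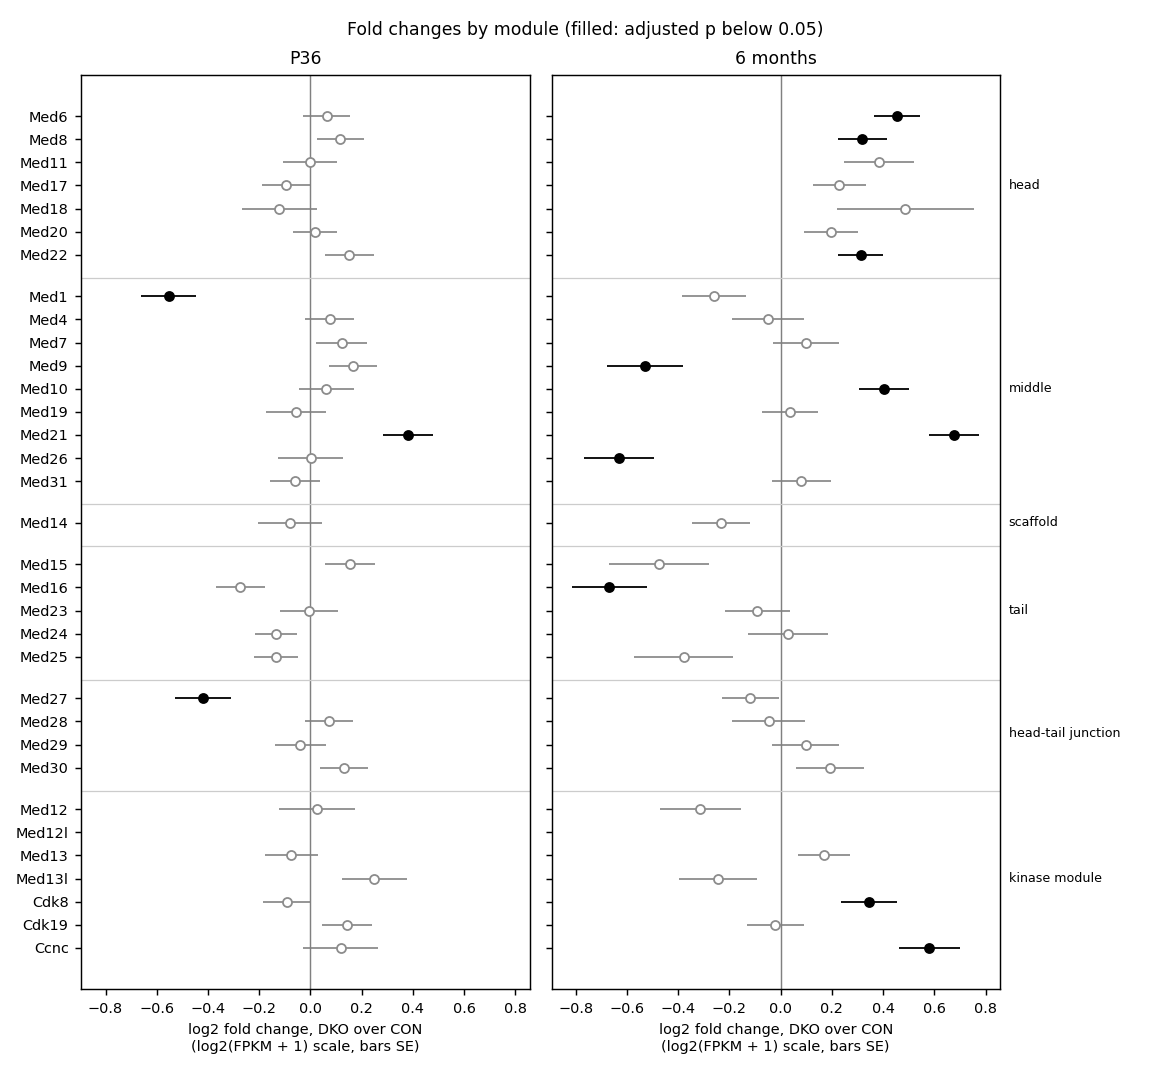
Log2 fold change of DKO over CON for each tested member by module at P36 (left) and 6 months (right), with bars of 1 SE and filled points for adjusted p below 0.05. At 6 months all 7 head subunits lie right of 0 and 4 of 5 tail subunits left of it.

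At 6 months, 10 of 32 members were called, 31.3% against 41.3% of all genes tested. Med6, Med8, Med10, Med21, Med22, Cdk8 and Ccnc were higher in DKO (23.2% of all genes were), and Med9, Med16 and Med26 were lower (18.2% of all genes were). The members' median log2 fold change was 0.06, and that of all 12594 genes was 0.04. Groups did not overlap for 19 members (55.7% of all genes), with DKO higher in 12 (31.8% of all genes) and lower in 7 (24.0% of all genes). With keratin and cornified envelope genes left out of the totals, which moved the median of all genes to −0.12, 3 members were higher (Med6, Med21 and Ccnc) and 6 lower (Med1, Med9, Med14, Med15, Med16 and Med26). The split of higher to lower calls was 4 to 3 with median-ratio scaling and with GC content smoothed out, and 3 to 3 with transcript length smoothed out. Leaving out 1 library gave 5 calls without CON replicate 2, 6 without CON replicate 3, DKO replicate 2 or DKO replicate 3, 7 without DKO replicate 1 and 9 without CON replicate 1.

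The head module, which contacts the polymerase and the general factors, held 7 measured subunits. All 7 were higher in DKO at 6 months with groups that did not overlap, and 3 of them were called. That is 42.9%, near the 41.3% of all genes called, while groups did not overlap with DKO higher for 31.8% of all genes. Their median log2 fold change was 0.32, and all 7 stayed positive under each of the 16 alternatives. At P36 none of the 7 was called by limma, against 23.3% of all genes (0 at an unadjusted p below 0.05). Their median there was 0.02.

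Med6, a conserved head subunit near the middle module, stood at 22.1, 24.7 and 24.2 FPKM in DKO and at 16.98, 16.8 and 17.2 FPKM in CON at 6 months (log2 fold change 0.45, SE 0.09, adjusted p = 0.00701). It was called without each library in turn, and the call was lost with GC content (0.19, adjusted p = 0.0883) or transcript length (0.20, adjusted p = 0.154) smoothed out. At P36 its values overlapped, at 17.8, 18.9 and 17.4 FPKM in DKO and 16.8, 16.4 and 18.5 FPKM in CON.

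Med8, which in yeast ties the movable part of the head to the rest, was at 27.3, 30.7 and 28.7 FPKM in DKO and at 21.3, 23.7 and 23.9 FPKM in CON at 6 months (log2 fold change 0.32, SE 0.10, adjusted p = 0.0335). The call of Med8 was lost without any 1 of the 6 libraries of that age, with adjusted p from 0.0553 to 0.0856, and also with the replicate block (0.0576) and under each of the 4 scalings, down to 0.14 with keratin and cornified envelope genes left out of the totals (adjusted p = 0.222). Med22, the partner of Med11 in a helical bundle of the head, was at 24.0, 26.1 and 24.3 FPKM in DKO and at 19.2, 19.8 and 20.4 FPKM in CON (0.31, SE 0.09, adjusted p = 0.0258). Its call was lost without any library of that age but CON replicate 1, with adjusted p from 0.0569 to 0.0825, and also with the replicate block (0.0638), with median-ratio scaling (0.0695) and with keratin and cornified envelope genes left out of the totals (0.135, adjusted p = 0.207). At P36 both overlapped between groups, Med8 at 25.02, 27.5 and 29.2 FPKM in DKO and 25.6, 23.8 and 25.7 FPKM in CON, and Med22 at 32.4, 36.8 and 36.8 FPKM in DKO and 29.2, 32.5 and 33.3 FPKM in CON.

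Of the 4 head subunits that were not called, Med11 was nearest, at 21.6, 25.4 and 20.8 FPKM in DKO and 14.3, 18.9 and 18.2 FPKM in CON (0.38, SE 0.14, adjusted p = 0.0572). Med17, the central subunit of the head, had a log2 fold change of 0.23 (adjusted p = 0.113), and Med20 one of 0.20 (adjusted p = 0.169). Med18, the partner of Med20, had the largest value of the module and the largest error (0.49, SE 0.27, adjusted p = 0.184). Its libraries stood at 5.4, 5.47 and 5.32 FPKM in DKO and at 1.88, 4.48 and 5.02 FPKM in CON, so that CON replicate 1 lay far below the rest.

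In the middle module, subunits moved in both directions at 6 months. Med21 stood at 36.1, 41.2 and 41.8 FPKM in DKO and at 23.4, 23.8 and 26.0 FPKM in CON, a DKO mean that was 163% of the CON mean. Its log2 fold change of 0.68 (SE 0.10, adjusted p = 0.00225) had the smallest p of the 32 members and was called under all 16 alternatives, though it was 0.36 with GC content and 0.32 with transcript length smoothed out. Med7, its partner, was at 8.55, 10.5 and 9.24 FPKM in DKO and at 10.01, 7.91 and 8.33 FPKM in CON, groups that overlap (0.10, adjusted p = 0.561).

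Med10, a small subunit of the middle module, was at 31.6, 34.5 and 29.7 FPKM in DKO and at 23.4, 22.8 and 25.3 FPKM in CON at 6 months (log2 fold change 0.40, SE 0.10, adjusted p = 0.0149). The call of Med10 was lost without CON replicate 2 (adjusted p = 0.0593), with keratin and cornified envelope genes left out of the totals (0.0728) and with transcript length smoothed out (0.09, adjusted p = 0.531). At P36 Med10 stood at 37.7, 40.3 and 31.8 FPKM in DKO and at 32.9, 35.3 and 36.4 FPKM in CON, groups that overlap. In GENCODE M21, 92.8% of the exon bases of Med10 overlap Gm26819 on the opposite strand, and whether reads were counted by strand is stated in no source used here. The overlap was 9.88% with Gm6654 for Med21 and 12.7% with Gm17435, an antisense gene, for Med26.

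Med26, the subunit that recruits elongation factors to the polymerase, fell to 4.99, 3.45 and 4.13 FPKM in DKO, against 7.3, 6.89 and 6.73 FPKM in CON, at 6 months (log2 fold change −0.63, SE 0.14, adjusted p = 0.0102). It was called without each library in turn, and lost with GC content smoothed out (−0.36, adjusted p = 0.0562). At P36 the levels of Med26 were 5.56, 6.23 and 7.11 FPKM in DKO and 5.63, 6.17 and 7.07 FPKM in CON, a log2 fold change of 0.00. Med9 was at 5.15, 5.52 and 4.88 FPKM in DKO and at 6.54, 7.82 and 9.65 FPKM in CON at 6 months (−0.53, SE 0.15, adjusted p = 0.0256). The call of Med9 was lost without any library of that age but CON replicate 1 (adjusted p 0.0549 to 0.0765). At P36 Med9 stood at 8.29, 8.98 and 9.01 FPKM in DKO and at 7.79, 8.01 and 7.3 FPKM in CON, higher in every DKO library and not called (0.17, adjusted p = 0.267).

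The other middle subunits had small values at 6 months: Med4, Med19 and Med31 had log2 fold changes of −0.05, 0.04 and 0.08. Med14, the scaffold that runs through the whole core, was at 12.1, 14.3 and 15.1 FPKM in DKO and at 16.5, 15.5 and 17.1 FPKM in CON. All its DKO libraries lay below all CON libraries, and it was not called (−0.23, adjusted p = 0.136).

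**Figure D3:**
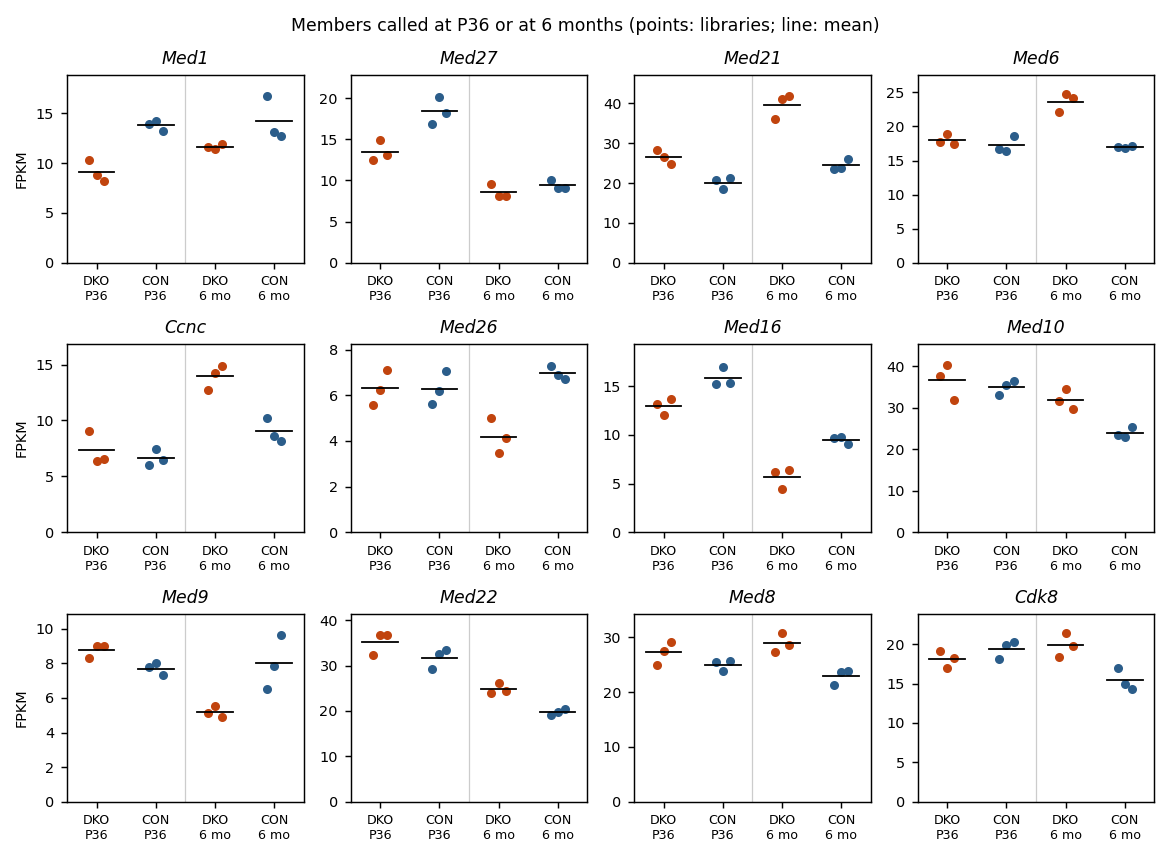
FPKM (linear axes from 0) of the 12 members called at P36 or at 6 months, with 1 point per library and a line at the mean of each group of 3. Med1 and Med27 are lower in the DKO libraries at P36, and at 6 months Med21, Med6 and Ccnc lie above their CON libraries while Med26 and Med16 lie below.

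The tail, where many activators dock, had the opposite sign from the head at 6 months. The median log2 fold change of its 5 subunits was −0.38, and 4 of 5 were negative. Only 1 of the 5 was called, lower, which is 20% against 41.3% of all genes called (18.2% lower). Groups did not overlap for 2 of the 5, Med15 and Med16, both with DKO lower (24.0% of all genes). The median was negative under all the scalings tried, from −0.56 to −0.23, and was −0.17 without DKO replicate 2. Med15, Med16, Med24 and Med25 have transcripts of 55.5% to 60.2% GC, and Med23 has one of 47.4%. With GC content smoothed out, the median was −0.23 for the tail and 0.23 for the head. Med16, which in yeast holds part of the tail together, fell to 6.23, 4.4 and 6.41 FPKM in DKO, against 9.67, 9.84 and 9.05 FPKM in CON. Its log2 fold change was −0.67 (SE 0.15, adjusted p = 0.0103), and it was called under all 16 alternatives, at −0.35 with GC content smoothed out. At P36 Med16 was at 13.2, 12.01 and 13.7 FPKM in DKO and at 15.3, 16.97 and 15.4 FPKM in CON, again with no overlap, and was not called (−0.27, adjusted p = 0.0751). The tail's median was already negative at P36 (−0.13), with 4 of 5 negative and 0 called, against 23.3% of all genes. Groups did not overlap there for 3 tail subunits with DKO lower (9.63% of all genes) and for 1 with DKO higher (30.0% of all genes).

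Med15, the tail subunit that binds SREBP factors, was at 13.5, 8.13 and 13.7 FPKM in DKO and at 15.5, 17.8 and 15.8 FPKM in CON at 6 months, and was not called (log2 fold change −0.47, SE 0.19, adjusted p = 0.0872). Med25 was at 33.9, 19.2 and 26.6 FPKM in DKO and at 31.6, 37.5 and 33.04 FPKM in CON (−0.38, SE 0.19, adjusted p = 0.157). DKO replicate 2 was the lowest library for Med15, Med16, Med24 and Med25. Med25 was called only without DKO replicate 1 (−0.57, adjusted p = 0.0461), and without DKO replicate 2 its log2 fold change was −0.17 (adjusted p = 0.389). Med23 and Med24 had log2 fold changes of −0.09 and 0.03.

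In the kinase module, Ccnc (cyclin C, which activates the kinases) was higher in DKO at 6 months, at 12.7, 14.2 and 14.9 FPKM in DKO and 10.2, 8.63 and 8.17 FPKM in CON (log2 fold change 0.58, SE 0.12, adjusted p = 0.00818). The call was kept without each library in turn and lost with GC content smoothed out (0.25, adjusted p = 0.155). Cdk8, 1 of the 2 kinases, was at 18.4, 21.4 and 19.8 FPKM in DKO and at 17.01, 14.9 and 14.3 FPKM in CON (0.35, SE 0.11, adjusted p = 0.0381). Its call was lost without any library of that age but CON replicate 1 (adjusted p 0.0548 to 0.125), and also with the replicate block (0.0782) and under each of the 4 scalings, down to 0.17 with keratin and cornified envelope genes left out of the totals (adjusted p = 0.252). The other kinase, Cdk19, was at 12.9, 13.2 and 14.2 FPKM in DKO and at 12.02, 14.2 and 14.8 FPKM in CON, groups that overlap (−0.02, adjusted p = 0.898).

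Med12 and Med13, the subunits that activate the kinase and tie it to the core, were not called at 6 months. Med12 was at 9.32, 7.06 and 9.76 FPKM in DKO and at 13.1, 9.86 and 10.2 FPKM in CON (−0.31, adjusted p = 0.153). Med13 was at 11.8, 13.8 and 12.4 FPKM in DKO and at 11.4, 10.8 and 11.3 FPKM in CON (0.17, adjusted p = 0.212). Med13l, the paralog of Med13, was at 13.3, 9.98 and 13.0 FPKM in DKO and at 16.95, 13.9 and 12.7 FPKM in CON at 6 months, groups that overlap (−0.24, adjusted p = 0.234). At P36 no member of the kinase module was called by limma, against 23.3% of all genes (0 of 6 at an unadjusted p below 0.05). Their log2 fold changes ran from −0.09 for Cdk8 to 0.25 for Med13l. Med13l was then at 9.42, 10.2 and 11.5 FPKM in DKO and at 8.67, 9.76 and 7.33 FPKM in CON, and Ccnc at 9.09, 6.34 and 6.59 FPKM in DKO and 6.01, 7.41 and 6.47 FPKM in CON. Cdk8 was at 19.2, 17 and 18.2 FPKM in DKO and at 18.1, 19.9 and 20.3 FPKM in CON at P36, and Cdk19 at 9.6, 9.25 and 10.9 FPKM in DKO and 9.07, 8.85 and 8.71 FPKM in CON. Med12 was at 7.7, 7.62 and 8.71 FPKM in DKO and at 9.01, 8.7 and 6.11 FPKM in CON, and Med13 at 6.52, 6.01 and 6.92 FPKM in DKO and 6.49, 6.98 and 7.15 FPKM in CON. Only Cdk19 had groups that did not overlap among these 6, with DKO higher. Over all genes tested, groups did not overlap for 39.6%, and for 30.0% with DKO higher.

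The module's 3 pairs of paralogs differed in their balance. The ratio of Cdk8 to Cdk19 FPKM was 2.00, 1.84 and 1.67 in DKO and 1.99, 2.25 and 2.33 in CON at P36, and 1.42, 1.62 and 1.39 in DKO and 1.42, 1.05 and 0.964 in CON at 6 months. The geometric mean ratio was thus 1.83 in DKO and 2.18 in CON at P36, and 1.48 in DKO and 1.13 in CON at 6 months, with groups that overlap at both ages. The ratio of Med12 to Med12l was 23.3, 33.1 and 34.8 in DKO and 31.1, 26.4 and 33.9 in CON at P36, and 25.2, 15.02 and 18.8 in DKO and 31.2, 30.8 and 20.0 in CON at 6 months, groups that overlap at both ages. Med13 and Med13l were closer, with geometric mean ratios of 0.627 in DKO and 0.805 in CON at P36, and of 1.06 in DKO and 0.774 in CON at 6 months. At P36 the ratio of Med13 to Med13l was 0.692, 0.59 and 0.603 in DKO and 0.749, 0.715 and 0.975 in CON. These groups do not overlap, and at 6 months the groups overlapped. Neither gene was called at P36 by limma (adjusted p = 0.669 for Med13 and 0.21 for Med13l). How often ratios of other gene pairs do not overlap was not tested. Reads that paralogs share could have been divided between them, and how this was done is stated in no source used here.

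**Figure D4:**
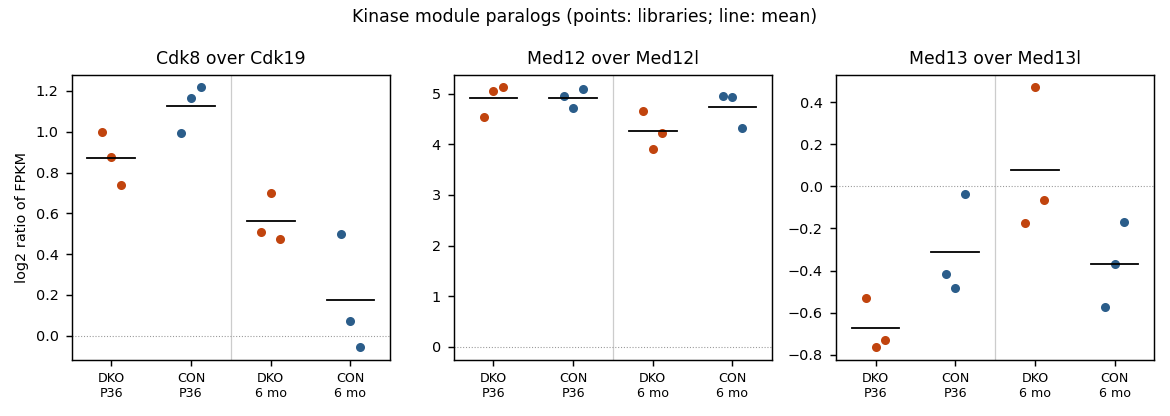
Log2 ratio of FPKM within each library for the 3 paralog pairs of the kinase module, with 1 point per library, a line at the group mean and a dotted line at a ratio of 1. Cdk8 exceeds Cdk19 less at 6 months than at P36, and Med12 exceeds Med12l in all 12 libraries.

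The genotype effects at the 2 ages were compared in a fit of all 12 libraries. The effect at 6 months minus that at P36 was called for 4 of 32 members, 12.5% against 34.9% of all genes (13.8% positive and 21.1% negative). It was positive for Cdk8 (0.44, SE 0.14, adjusted p = 0.0275) and Med6 (0.39, SE 0.12, adjusted p = 0.0229). It was negative for Med9 (−0.69, SE 0.17, adjusted p = 0.00984) and Med26 (−0.63, SE 0.19, adjusted p = 0.0216). All 7 head subunits had a positive difference, with a median of 0.32, while the median was 0.14 over the 32 members and −0.08 over all genes.

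The calls of Med6, Med26 and Cdk8 depended on single libraries, while Med9 was called without each of the 12 libraries in turn and lost with GC content smoothed out (−0.41, adjusted p = 0.0791). The number called fell to 1, Med9, without DKO replicate 3 of P36, to 2 without CON replicate 3 of P36, and reached 6 without DKO replicate 3 of 6 months. Med26 was also not called without CON replicate 1 of P36 (adjusted p = 0.0546), nor Cdk8 without replicate 2 of any group (adjusted p 0.0569 to 0.0641) or CON replicate 3 of 6 months (0.0675). With median-ratio scaling 8 differences were called positive and 1 negative, with keratin and cornified envelope genes left out of the totals 0 and 3, with GC content smoothed out 5 and 0, and with transcript length smoothed out 5 and 1. The median over all genes moved to 0.07, −0.19, 0.03 and 0.04 under these.

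More members were called between ages than between genotypes. In the libraries labelled DKO, 20 of 32 members were called at 6 months against P36 (10 higher and 10 lower), 62.5% against 60.0% of all genes (28.0% higher and 32.0% lower). In CON 19 were called (10 higher and 9 lower), 59.4% against 63.1% of all genes (35.3% higher and 27.9% lower). The members that were higher with age in both genotypes numbered 7: Ccnc, Cdk19, Med4, Med7, Med13, Med14 and Med21. They made up 70.0% of either list of higher members. Another 6, Med16, Med22, Med24, Med25, Med27 and Med29, were lower in both, 60.0% of the DKO list and 66.7% of the CON list. Over all genes, the shared calls were 68.1% of the DKO list and 54.1% of the CON list among higher genes, and 58.6% and 67.3% of these lists among lower genes.

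Med13 had the smallest p in DKO, at 12.7 ± 1.04 FPKM at 6 months and 6.48 ± 0.456 FPKM at P36 (SD, n = 3 each; log2 change 0.87, limma adjusted p = 1.83e-05). In CON it stood at 11.1 ± 0.344 FPKM at 6 months and 6.87 ± 0.343 FPKM at P36 (log2 change 0.62, limma adjusted p = 0.000112). Med16 fell with age in DKO to 5.68 ± 1.11 FPKM, against 13.0 ± 0.853 FPKM at P36 (−1.08, limma adjusted p = 2.7e-05), and in CON to 9.52 ± 0.416 FPKM, against 15.9 ± 0.95 FPKM at P36 (−0.68, limma adjusted p = 0.000454). Med24 fell in both, by 0.82 in DKO and by 0.98 in CON on the log2 scale. With GC content smoothed out, the DKO values were 0.30 for Med13, −0.55 for Med16 and −0.44 for Med24, and Med13 in CON was 0.24, all still called. With transcript length smoothed out, Med13 in CON was 0.23 and not called (adjusted p = 0.0725). Med1 was higher with age in DKO (0.32, adjusted p = 0.0285), a call lost without DKO replicate 2 or 3 of P36, or any 1 DKO library of 6 months (adjusted p 0.0517 to 0.108), and under 3 of the scalings (0.0604 to 0.243), and was 0.03 in CON (adjusted p = 0.827). In CON it was −0.29 and called lower with transcript length smoothed out (adjusted p = 0.034).

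The 2 ages were deposited in separate tables, so that age and table cannot be told apart. The split of higher to lower calls in CON was 6 to 12 with median-ratio scaling or with GC content smoothed out. It was 7 to 10 with transcript length smoothed out, and 11 to 7 with keratin and cornified envelope genes left out of the totals. In DKO it was 5 to 6 with GC content smoothed out and 12 to 9 with transcript length smoothed out. With GC content smoothed out, 2 of the 7 members named above as higher in both genotypes, Med4 and Med13, were still called higher in both, and 3 of the 6 lower ones, Med16, Med24 and Med27, were still called lower in both. Median-ratio scaling moved the median of all genes in CON to −0.02, against 0.10 without it.

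The members that moved at 6 months differed in base composition, which the choice of members did not use. The first 120 coding bases of 2 members that were higher in DKO, Med21 and Ccnc, and of 2 that were lower, Med16 and Med26, show it. They lie on chromosomes 6, 4, 10 and 8 in that order, and are from the longest coding transcripts of GENCODE M21 (GRCm38), with the start codon in capitals.
Med21: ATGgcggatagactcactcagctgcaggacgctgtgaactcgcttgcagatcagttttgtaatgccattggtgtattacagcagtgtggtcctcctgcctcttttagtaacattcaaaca
Ccnc: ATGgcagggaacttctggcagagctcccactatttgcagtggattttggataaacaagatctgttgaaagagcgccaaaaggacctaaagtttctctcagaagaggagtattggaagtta
Med16: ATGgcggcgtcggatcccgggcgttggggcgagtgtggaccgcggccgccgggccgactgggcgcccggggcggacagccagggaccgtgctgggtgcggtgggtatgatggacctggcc
Med26: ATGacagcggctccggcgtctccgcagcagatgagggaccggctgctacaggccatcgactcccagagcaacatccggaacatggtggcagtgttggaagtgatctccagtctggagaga

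G and C made up 44.0% of the whole coding sequence of Med21 and 40.0% of that of Ccnc, but 61.5% of that of Med16 and 60.4% of that of Med26. Across the 32 members, the log2 fold change at 6 months had a Pearson correlation of −0.60 with transcript GC content, and across 12553 genes one of −0.31. At P36 the values were −0.21 over the members and −0.05 over all genes. For 6 months against P36 the correlation over the members was −0.82 in DKO and −0.48 in CON. Transcript length (log2) also correlated with the genotype effect at 6 months, at −0.45 over the members and −0.17 over all genes. Genes are not independent replicates, and all points share the same libraries.

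The libraries differed in the same property. Relative to each gene's mean over the 6 libraries of 6 months, genes over 55% GC had a median deviation of −0.32 (log2) in DKO replicate 2, −0.06 in replicate 1 and 0.01 in replicate 3 at 6 months, and of 0.03 to 0.17 in CON. Genes under 45% GC had median deviations of 0.07 to 0.21 in DKO and −0.18 to −0.10 in CON. With GC content smoothed out of each library, 7 members were called at 6 months. Med10, Med11, Med21 and Med22 were higher and Med1, Med14 and Med16 were lower, so 4 of the 10 members called above remained. Smoothing on GC content or transcript length was also run for the other limma comparisons, and its results are given with them. The part of base composition or of transcript length in the other results was not tested beyond that.

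**Figure D5:**
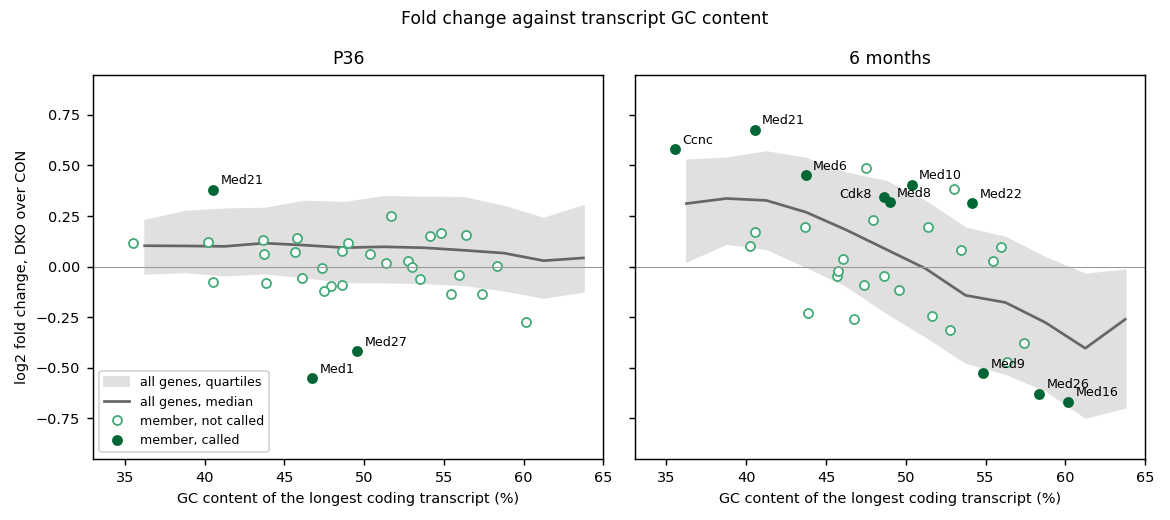
Log2 fold change of DKO over CON against the GC content of each member's longest coding transcript at P36 (left) and 6 months (right), over the median and quartiles of all genes in bins of GC content. At 6 months the 7 members called higher run from Ccnc at 35.5% to Med22 at 54.2% GC, and the 3 called lower (Med9, Med26 and Med16) from 54.8% to 60.2%.

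The genes that Mediator works with were counted from 5 lists, beside the 23.3% of all genes called at P36 and 41.3% at 6 months. Of 12 core subunits of RNA polymerase II, 1 was called at P36, 8.33% against 23.3% of all genes. It was Polr2a, the largest subunit, at 27.8, 36.0 and 32.9 FPKM in DKO and 21.4, 24.98 and 21.0 FPKM in CON (log2 fold change 0.50, adjusted p = 0.0193). That call was lost without CON replicate 1 (adjusted p = 0.0666), CON replicate 3 (0.0533), DKO replicate 2 (0.0764) or DKO replicate 3 (0.0729), with median-ratio scaling (0.0677), with transcript length smoothed out (0.0537) and in the joint fit of 12 libraries (0.112). At 6 months 7 were higher and 1 was lower, 66.7% called against 41.3% of all genes (23.2% higher and 18.2% lower), with a median of 0.42. Polr2b, the second largest subunit, was at 24.9, 27.1 and 25.1 FPKM in DKO and at 15.1, 16.0 and 15.03 FPKM in CON (0.70, adjusted p = 0.00141). Of 31 general transcription factor genes, none was called at P36 by limma, against 23.3% of all genes (2 at an unadjusted p below 0.05). However, 4 were lower with median-ratio scaling or with GC content smoothed out, and 3 with transcript length smoothed out. At 6 months 14 of the 31 were higher and 1 was lower, 48.4% called against 41.3% of all genes, with a median of 0.32. Gtf2h1, a TFIIH subunit, was at 31.5, 32.6 and 29.8 FPKM in DKO and at 18.4, 18.1 and 18.5 FPKM in CON (0.74, adjusted p = 0.00104). The medians of both lists stayed positive under each scaling tried. With keratin and cornified envelope genes left out of the totals, the calls were 4 higher and 2 lower for the polymerase and 8 higher and 2 lower for the general factors.

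The lists further from the promoter were mixed. Of 15 coactivators and enhancer partners none was called at P36, against 23.3% of all genes (0 at an unadjusted p below 0.05). At 6 months 4 were higher and 1 was lower, 33.3% called against 41.3% of all genes. That split became 2 to 3 with median-ratio scaling or GC content smoothed out, and 1 to 4 with keratin and cornified envelope genes left out of the totals. Kat2b had the smallest p of the 5 called and was higher in DKO (0.54, adjusted p = 0.00695). The lower one, Crebbp, the acetyltransferase CBP, was at 8.54, 6.08 and 8.41 FPKM in DKO and at 12.6, 10.8 and 11.4 FPKM in CON (−0.55, adjusted p = 0.0213), a call lost without CON replicate 1 (adjusted p = 0.0536) or CON replicate 3 (0.0557). Of 17 genes of pause release and elongation none was called at P36, against 23.3% of all genes (3 at an unadjusted p below 0.05). The exception was that 1 was lower with median-ratio scaling or with transcript length smoothed out. At 6 months 2 were higher (Ell2 and Supt4a) and 5 lower (Aff1, Nelfa, Nelfb, Mllt1 and Mllt3), 41.2% called against 41.3% of all genes. Aff1, a scaffold of the super elongation complex, was at 15.4, 13.2 and 16.3 FPKM in DKO and at 35.7, 23.3 and 22.8 FPKM in CON (−0.80, adjusted p = 0.0125), a call lost without DKO replicate 2 (adjusted p = 0.0501). Ell2, an elongation factor of the super elongation complex that Med26 recruits, was at 37.1, 43.3 and 35.3 FPKM in DKO and at 23.0, 19.1 and 17.8 FPKM in CON (0.92, adjusted p = 0.00199). Of the vitamin D receptor and its partners, 3 of 5 were tested, and Rxra, the receptor's dimer partner, fell to 48.7, 39.4 and 43.7 FPKM in DKO, against 83.3, 79.9 and 78.8 FPKM in CON, at 6 months (−0.87, adjusted p = 0.00113).

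In the authors' deposited table, q was below 0.05 for 21 of the 33 members at P36 (12 higher and 9 lower, 69.9% of all genes) and for 26 at 6 months (15 higher and 11 lower, 80.6% of all genes). The authors' deposited table gives a log2 ratio of −0.52 for Med1 at P36 and −0.27 at 6 months. Its q was below its own p for 28 of 33 members at P36 and for all 33 at 6 months, and the test behind it is stated in no source used here.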

How the data were processed

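Total RNA of mouse dorsal epidermis was sequenced in 12 libraries (BGISEQ-500, 50-base single-end reads, ribosomal RNA removed with RNase H), per the labels' protocols. The authors deposited 1 table per age with FPKM per gene and library, a log2 ratio and its p-value and q-value, and the tools were HISAT2 2.1.0 with RSEM 1.2.8, per the submitters' processing notes. The same notes list a human genome build, while the tables hold mouse gene IDs, of which 19343 of 19392 and 17712 of 17750 matched RefSeq symbols. The deposited FPKM carry no read counts, so depth and counting error are unknown and no count test was run. The age of each table was read from the table's name.

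Genes that reached 1 FPKM in 3 or more libraries were tested on log2(FPKM + 1) with limma 3.58.1 (R 4.3.3), with a variance prior that follows mean expression and Benjamini-Hochberg adjustment over all genes. Each age was fitted on its 6 libraries, and the difference between ages and the age effects on all 12. The procedure was tested on simulated data. No pair of libraries of the same age shared more than 0.412% identical values, among genes with at least 1 FPKM in both. Pairs across ages were not compared. All members were accounted for, and values in every library are given for Med1, the called members and the paralog pairs. The members and lists were chosen with earlier results of these data known. Alternatives were a pseudocount of 0.1, no minimum, a minimum of 5 FPKM, median-ratio scaling, keratin and cornified envelope genes left out of the totals, a constant variance prior, a replicate block, a joint fit and leaving out each library, with lowess smoothing (span 0.3) on GC content or transcript length added after seeing the data.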

Additional observations from a re-analysis of the deposited data

Results flagged for a closer look

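In 4 members the genotype effect at 6 months differed from that at P36 by limma's test of the difference itself. The difference, 6 months minus P36, was −0.69 for Med9 (adjusted p = 0.00984), which had log2 fold changes of −0.53 at 6 months and 0.17 at P36. It was −0.63 for Med26 (adjusted p = 0.0216), with log2 fold changes of −0.63 at 6 months and 0.00 at P36. It was 0.44 for Cdk8 (adjusted p = 0.0275), with 0.35 at 6 months and −0.09 at P36, and 0.39 for Med6 (adjusted p = 0.0229), with 0.45 at 6 months and 0.06 at P36. Med9 was called without each of the 12 libraries in turn and lost only with GC content smoothed out (−0.41, adjusted p = 0.0791). The share of members with a called difference, 12.5%, was below that of all genes, 34.9%.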

How the results depend on the processing

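Med1 at P36 was called under all 16 alternatives (−0.68 to −0.49). At 6 months Med1 was called under 2 of 16, both at −0.43: with keratin and cornified envelope genes left out of the totals (adjusted p = 0.0388) and with GC content smoothed out (0.0358). Leaving out 1 library gave 1 to 2 called members at P36, 5 to 9 at 6 months and 1 to 6 in the difference between ages. The other counts that moved by over 1.5 times were 6 at 6 months with transcript length smoothed out, 9 in the difference with median-ratio scaling and 2 with the replicate block (Cdk8 and Med6 were lost), and 11 with age in DKO with GC content smoothed out, and the cause was not tested. Over all genes, the P36 count of 2949 was 1662 without DKO replicate 2 and 1697 without DKO replicate 3. With transcript length smoothed out, Med1 with age in CON was −0.29 and called, against 0.03 without.

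With replicate number as a block, 3 members were called at P36, 7 at 6 months, 2 in the difference between ages, 20 with age in DKO and 16 with age in CON. Whether the numbers pair the samples is not known. Deviations of libraries with the same number correlated at −0.12 to 0.18, which cannot decide it with 3 libraries a group. Read depth is unknown, and 3 libraries a group limit the precision of each value.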
